A study of Mus musculus with 7 samples.

Results

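Proteins of the BCL2 family decide whether the outer membrane of a cell's mitochondria stays closed, and so whether the cell lives or enters apoptosis. Pro-survival members such as BCL-2 hold the pore-forming effectors in check, and pro-death members that carry only the BH3 motif either block the pro-survival proteins or activate the effectors. In the spleen these proteins set how long resting lymphocytes persist and how expanded T cells are cleared after a response. The genes described here are 8 of the 12393 genes with a probe set of a single symbol: the pro-survival Bcl2, Bcl2l1 (BCL-X) and Mcl1, and the pro-death Bcl2l11 (BIM), Bik, Bid, Bad and Bak1. The genes were chosen with earlier results of these data known, and their probe sets by platform gene symbol alone. In all, 25 probe sets carry their names, 11 for the 3 pro-survival genes and 14 for the 5 pro-death genes. No probe set with several symbols names a member.

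Spleen cell RNA was measured on 7 Affymetrix arrays in a mouse model of acute graft-versus-host disease, a disease in which donor T cells attack the host. All recipients were female C57BL/6 mice, 9 to 12 weeks of age, irradiated with 10.0 Gy. Donor spleen cells followed after 4 to 6 h, and spleens of every group were taken on day 4. An antibody against ICOSL, the ligand of the T cell costimulator ICOS, was begun on day 3 in 2 arrays and on day 0 in 2 arrays (500 µg, then 200 µg every other day), both after cells of C3H/HeN donors. With spleens taken on day 4, the schedules also differ in time of exposure and in the doses that fall before harvest. Another 2 arrays are allogeneic recipients of C3H/HeN cells given control rat IgG (isotype), also at 500 µg and then 200 µg. The remaining 1 array is of syngeneic recipients of C57BL/6 cells, labelled as mice in the plural, and the labels name no antibody for it. The start day of the control antibody is not stated, and the 2 arrays of each allogeneic group hold RNA that was combined from several mice. P-values therefore measure the spread between arrays, which may be technical. Donor strain, antibody and allogeneic response cannot be told apart in a comparison with the syngeneic array. Host and donor cells are measured together, so fewer cells of a type and less RNA per cell cannot be told apart either.

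Values are signals on a linear scale, and changes are log2 differences of (signal + 50), which understate changes of weak signals. Of the 25 probe sets, 22 were tested, at least 1 for each of the 8 genes. The other 3 stayed below a signal of 99.7, the 40th percentile of all signals, in every group mean, which is the filter. Of the 22, 2 (Bik 1420363_at and Bcl2l1 1426191_a_at) reached the signal filter through the isotype group alone, so isotype had to be higher there in each comparison with it, and every count or median over the 22 below includes them. Signals of different probe sets are not compared with each other. The letters that end a probe set's name matter here: _a_at marks a set that matches several transcripts of 1 gene, and _s_at and _x_at mark sets that may also match other genes. Among the 22 tested probe sets the 2 arrays of a group differed by a median of 1.17-fold in the day 3 group, 1.17-fold in the day 0 group and 1.2-fold in the isotype group, against 1.16-fold, 1.2-fold and 1.22-fold over all 15372 tested probe sets. More than 2-fold between arrays were 3, 2 and 1 of the 22, and the widest gap was 11.7-fold, for a weak Bcl2l1 probe set in the day 0 group.

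Isotype was set against syngeneic to see how the family stands in an allogeneic spleen. Bcl2, which keeps resting lymphocytes alive, was lower, and Bak1, an effector that forms the mitochondrial pore, was higher, while no probe set of the other 6 genes passed the test. Of the 22 tested probe sets, 1 rose and 1 fell at an adjusted p under 0.05, a share of 9.09% against 6.62% of all tested probe sets (2.49% higher and 4.12% lower). That share is near the background and is no result about the family. At an unadjusted p under 0.05 there were 8 of 22, and 23% of all probe sets. The median change was −0.13 over the 22 and −0.01 over all tested probe sets, with 13 of the 22 below 0, against 50.7% of all. Medians were −0.26 for the 10 pro-survival and −0.02 for the 12 pro-death probe sets. Mcl1 alone gives 6 of the 10, and Bcl2l11 gives 5 of the 12. With 1 probe set per gene the medians were −0.14 for 3 pro-survival and −0.09 for 4 tested pro-death genes.

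**Figure D1:**
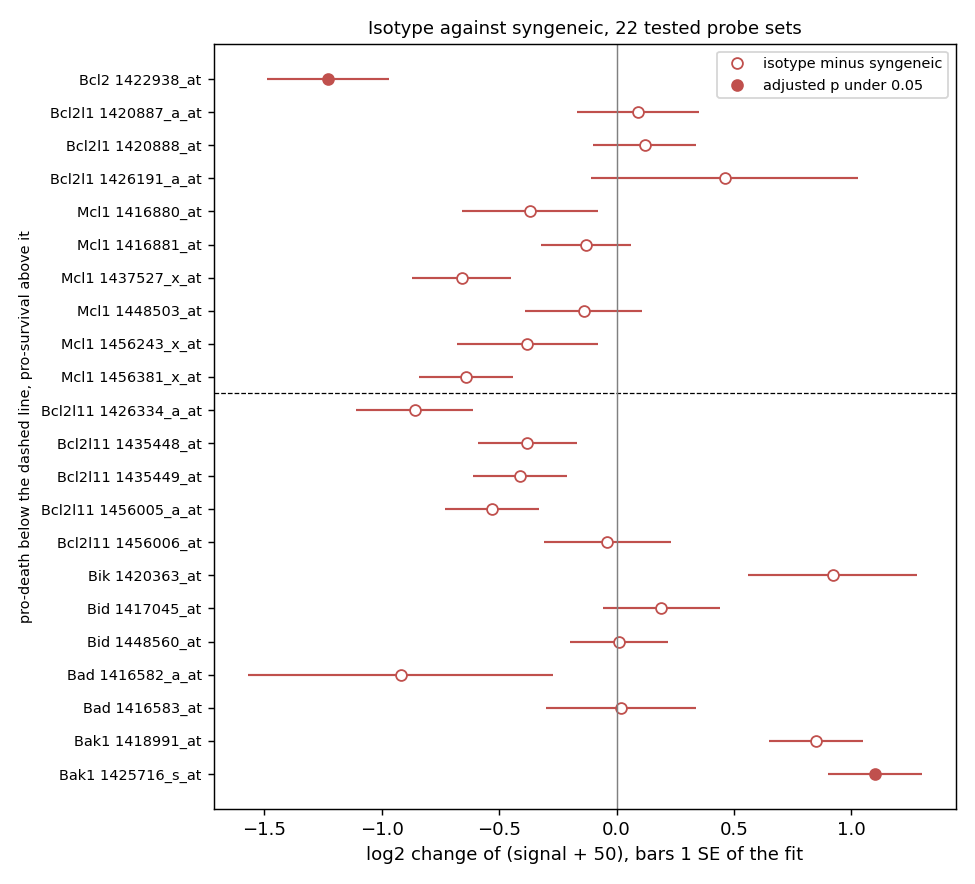
Log2 change of (signal + 50), isotype (2 arrays) minus syngeneic (1 array), for the 22 tested probe sets, with bars of 1 SE of the fit. Filled points passed at an adjusted p under 0.05 (Bcl2 at −1.23 and 1 Bak1 probe set at 1.10), and Mcl1 and Bcl2l11 points all lie below 0.

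Bcl2 has 1 probe set (1422938_at). Its signal was 351 and 429 on day 3 arrays, 536 and 379 on day 0 arrays, 413 and 454 on isotype arrays, and 1082 on the syngeneic array. All 6 allogeneic arrays lay below the syngeneic one, and the highest of them, at 536, was a day 0 array. All 6 lay below the syngeneic array for 26.4% of all tested probe sets, and above it for 26%. Bcl2 averaged 434 ± 29 on isotype arrays (SD, n = 2) against 1082, a log2 change of −1.23 ± 0.26 (SE, adjusted p = 0.0449). The call was close to the threshold and ended when any 1 allogeneic array was left out (adjusted p = 0.053 to 0.116).

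Bak1 has 2 probe sets, and both were higher on all 6 allogeneic arrays than on the syngeneic array. The probe set 1425716_s_at read 512 and 446 on day 3 arrays, 704 and 711 on day 0 arrays, 605 and 555 on isotype arrays, and 244 on the syngeneic array. It rose in isotype by 1.10 ± 0.20 on the log2 scale, or 2.14-fold in signal + 50 (adjusted p = 0.0281), a call that also ended with any 1 allogeneic array left out (adjusted p = 0.057 to 0.0812). The other probe set, 1418991_at, read 1102 and 1074 on day 3 arrays, 919 and 932 on day 0 arrays, 1050 and 885 on isotype arrays, and 514 on the syngeneic array. Its change of 0.85 ± 0.20 had an adjusted p of 0.0634 and did not pass. Both probe sets thus lay on the same side, and their 95% intervals, 0.62 to 1.58 and 0.36 to 1.34, overlap.

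**Figure D2:**
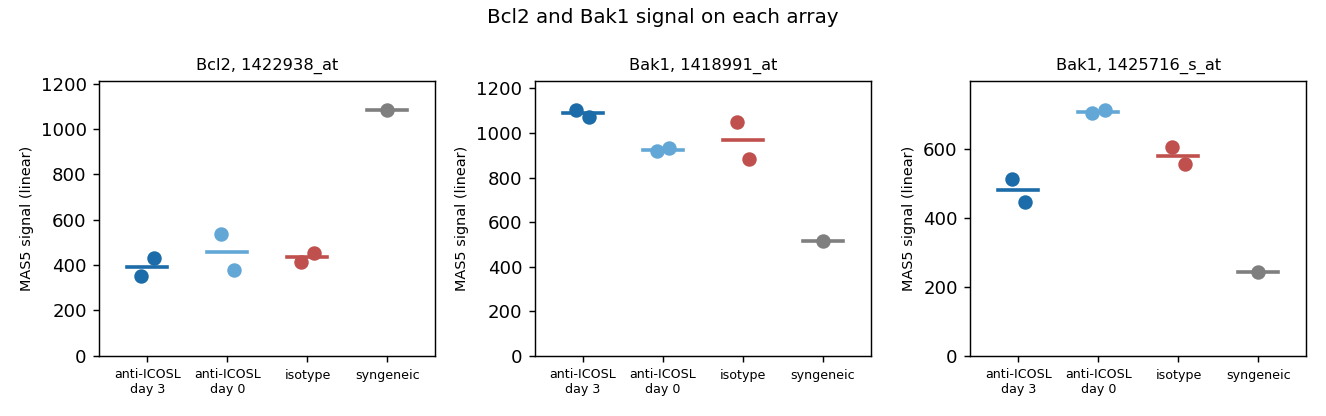
MAS5 signal of the Bcl2 probe set and both Bak1 probe sets on a linear scale from 0, with a point for each array and a line at the group mean. The syngeneic array is above all 6 allogeneic arrays for Bcl2 (1082 against 351 to 536) and below all 6 for both Bak1 probe sets.

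Promoter windows are shown for the members that passed, Bcl2 and Bak1, and for Bcl2l11, a known target of FOXO factors in lymphocytes. Each runs from 250 bases before to 50 bases after an annotated start (RefSeq, GRCm38.p6), and 7 of the 8 members have such a window in the table used. Capitals mark matches, on either strand, to 7 motifs: the GAS element of STAT factors (TTCNNNGAA), a pair of IRF half-sites (GAAA, any 2 bases, GAAA), the E-box CACGTG, the FOXO site TGTTTAC, the GC box GGGCGG, and the kappa B site and p53 half-site by their consensus. No base lies in 2 matches.
Bak1 (chr17:27028578-27028877, minus strand): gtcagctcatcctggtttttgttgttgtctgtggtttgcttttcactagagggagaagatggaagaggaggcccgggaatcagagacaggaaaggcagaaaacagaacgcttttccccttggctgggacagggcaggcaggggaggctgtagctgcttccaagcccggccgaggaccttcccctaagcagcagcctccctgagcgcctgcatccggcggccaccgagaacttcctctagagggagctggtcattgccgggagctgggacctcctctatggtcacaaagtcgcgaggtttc
Bcl2 (chr1:106714241-106714540, minus strand): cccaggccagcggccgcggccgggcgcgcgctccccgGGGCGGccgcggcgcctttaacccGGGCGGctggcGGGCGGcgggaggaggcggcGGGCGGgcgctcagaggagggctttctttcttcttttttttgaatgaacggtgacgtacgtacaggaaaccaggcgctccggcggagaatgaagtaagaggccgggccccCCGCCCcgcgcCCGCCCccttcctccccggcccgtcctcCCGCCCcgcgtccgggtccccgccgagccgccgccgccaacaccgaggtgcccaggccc
Bcl2l11 (chr2:128125788-128126087, plus strand): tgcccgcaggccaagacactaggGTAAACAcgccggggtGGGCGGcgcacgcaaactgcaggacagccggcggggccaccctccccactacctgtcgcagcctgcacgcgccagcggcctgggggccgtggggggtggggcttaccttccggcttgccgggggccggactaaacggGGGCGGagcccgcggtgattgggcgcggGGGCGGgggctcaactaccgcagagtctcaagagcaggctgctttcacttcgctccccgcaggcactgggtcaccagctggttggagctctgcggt
The Bcl2 window holds 7 GC boxes, a motif found in 35.6% of 32817 windows of this length, and is 76% G and C. The Bak1 window has none of the 7 motifs and is 58.3% G and C. The table has 2 windows for Bcl2l11. The one printed holds 3 GC boxes and 1 FOXO match, 227 bases before the start, where 3.65% of windows have one, and the other (chr2:128127325-128127624) holds 3 GC boxes and no FOXO match. GAS elements occur in 8.29% of windows, IRF pairs in 3.43%, E-boxes in 7.15%, kappa B sites in 8.46% and p53 half-sites in 8.36%. These matches describe letters in a window and show no binding.

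Mcl1, a short-lived pro-survival protein that many blood cells need, has 6 probe sets, and none passed. All 6 were below 0 in isotype against syngeneic (−0.66 to −0.13), and on 5 of them every allogeneic array was lower than the syngeneic one, as on 26.4% of all tested probe sets. The farthest, 1437527_x_at, read 2355 and 2409 on day 3 arrays, 2401 and 2146 on day 0 arrays, 2263 and 2634 on isotype arrays, and 3884 on the syngeneic array (−0.66 ± 0.21, adjusted p = 0.126). The exception, 1448503_at, overlapped between groups, with 3887 and 3612 on day 3 arrays, 3988 and 3181 on day 0 arrays, 2887 and 3683 on isotype arrays, and 3591 on the syngeneic array. Its change was −0.14, with a 95% interval of −0.74 to 0.46.

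Bcl2l11 encodes BIM, the BH3-only protein that removes T cells when cytokine support ends. Its 5 probe sets were all below 0 in isotype against syngeneic (−0.86 to −0.04), the isotype arrays did not overlap the syngeneic array for 4 of them, and none passed. The probe set with the lowest change, 1426334_a_at, read 121 and 80.1 on day 3 arrays, 121 and 147 on day 0 arrays, 96.0 and 78.7 on isotype arrays, and 198 on the syngeneic array (−0.86 ± 0.25, adjusted p = 0.103). The pro-death Bcl2l11 and the pro-survival Mcl1 thus lay on the same side of 0 in this comparison. Isotype and syngeneic arrays were fully separated for 17 of the 22 probe sets, 6 higher and 11 lower, against 76.9% of all tested probe sets (38% higher and 38.8% lower).

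The remaining members did not pass. Bcl2l1, whose long form protects activated lymphocytes and red cell precursors, had 3 tested probe sets at 0.09 to 0.46. One of them, 1420888_at, read 507 and 600 on isotype arrays against 505 on the syngeneic array (0.12, 95% interval −0.42 to 0.66). The annotation used here does not say whether a probe set reads the long form or the short, pro-death splice form. Bid, which links death receptors and granzyme B to mitochondria, had changes of 0.19 and 0.01, and Bad, which binds BCL-2 and BCL-XL when survival signals fade, had −0.92 and 0.02. The lower Bad value comes from 1416582_a_at, whose isotype arrays were 288 and 95.1, a 3.03-fold gap and the widest among the 22 probe sets in that group. For Bik, another BH3-only gene, 1420363_at read 95.4 and 154 on isotype arrays against 41.1 on the syngeneic array (0.92 ± 0.36, adjusted p = 0.197), a direction that the filter fixed.

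Markers of cell types moved in the same comparison, and their summed signals cover every listed marker with a probe set, tested or not. All 12 macrophage and monocyte markers fell, with a summed signal of 8635 to 9179 on isotype arrays against 67947 on the syngeneic array, and all 8 tested neutrophil markers fell (10327 to 10834 against 40193). Of 10 erythroid markers 6 fell (8295 to 8354 against 26913), of 8 B cell markers 1 fell (15558 to 16964 against 25318), and of 5 natural killer markers 1 fell (1234 to 1591 against 3011). Of 10 T cell markers 3 rose (34354 to 40852 against 26556), and of 11 proliferation genes 4 rose (55056 to 57752 against 33802). Of 6 plasma cell markers 1 rose and 1 fell, and 5 were below 0 (median −0.93). Their summed signal was 17316 to 19569 on isotype arrays against 69163 on the syngeneic array. None of 6 megakaryocyte and platelet markers passed (920 to 922 against 1000). No summed level was at 0 on any array. The 3' to 5' ratio of the Gapdh control, a sign of RNA quality, was 0.767 to 0.784 on isotype arrays and 0.957 on the syngeneic array. The part of cell composition and RNA quality in the Bcl2 and Bak1 values was not tested.

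Over the 7 arrays the genes whose log2 signal followed Bcl2 most closely were Eif3a (r = 0.993), a translation initiation factor, and Carns1 (r = 0.989), which encodes carnosine synthase. Those most like the Bak1 probe set 1425716_s_at were Gldc (r = 0.99), a glycine cleavage enzyme, and Mapre2 (r = 0.989), a microtubule end-binding protein. These are the 2 highest among 8945 genes for either probe set, over 7 arrays of which 1 stands apart. The values only describe likeness over these arrays, with the step between the syngeneic array and the others in it. Carns1 read 19.0 to 72.7 on the 6 allogeneic arrays and 279 on the syngeneic array. It reached the filter, a signal of 99.7, through the syngeneic array alone, so it had to be higher there. Gldc and Mapre2 were higher on both day 0 arrays than on both day 3 arrays, as 1425716_s_at was. They were picked for likeness over these same arrays, so this order is no separate sign of a difference between schedules.

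Around the family, the other genes of the death pathway were read from lists, with 1 probe set per gene. In isotype against syngeneic 0 of 7 tested further BCL2 family genes passed, 1 of 14 apoptosome and caspase genes rose, 0 of 8 caspase inhibitors passed, 1 of 12 death receptor genes rose and 1 fell, and 3 of 22 upstream regulators rose and 1 fell. Casp4, an inflammatory caspase, read 564 and 653 on isotype arrays against 172 on the syngeneic array (1.57 ± 0.31, adjusted p = 0.0382). Fasl, the ligand with which T cells trigger the death receptor FAS, read 871 and 1380 against 409 (1.32 ± 0.29, adjusted p = 0.0496). Tnfrsf1a, the main receptor of tumour necrosis factor, fell, with 619 and 624 against 1817 (−1.48 ± 0.19, adjusted p = 0.0116). The lowest of the further family genes was Bbc3, which encodes PUMA, at −1.12 (adjusted p = 0.12), followed by Bnip3 at −0.48. Among caspase inhibitors Naip5 stood at −1.42 (adjusted p = 0.0802), and Birc5, which encodes survivin and is also a mitotic gene, at 1.11 (adjusted p = 0.0647).

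The upstream regulators include the cytokine receptors through which T cells receive survival signals, and 2 of these changed in opposite directions. Il7r, the interleukin 7 receptor chain, known to sustain Bcl2 in resting T cells, read 957 and 913 on day 3 arrays, 1606 and 1659 on day 0 arrays, 1151 and 1359 on isotype arrays, and 2637 on the syngeneic array. It fell in isotype (−1.05 ± 0.20, adjusted p = 0.0347). All 6 allogeneic arrays were below the syngeneic one, as on 26.4% of all tested probe sets. A part of Il7r in the Bcl2 values was not tested. Il2ra, a chain of the interleukin 2 receptor on activated T cells, rose (3.25, adjusted p = 0.00267), as did Gzmb, which encodes a protease that cleaves BID (3.16, adjusted p = 0.00211). Bcl3, a partner of NF-kappa B known to favour survival of activated T cells, read 1195 and 1098 on isotype arrays against 464 (1.22 ± 0.21, adjusted p = 0.0229). Some of these genes lost their call when certain single arrays were left out of the fit. The Il7r call ended with any 1 allogeneic array left out (adjusted p up to 0.0912, with a change of −1.16 to −0.93), that of Casp4 without any 1 isotype or day 3 array (up to 0.124, with 1.47 to 1.66), that of Bcl3 without any 1 isotype or day 0 array (up to 0.0724, with 1.16 to 1.28), and that of Fasl without isotype array 2 or any 1 day 0 or day 3 array (up to 0.0993, with 1.00 to 1.32).

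The next comparisons ask what ICOSL blockade changes in the allogeneic spleen. No member passed for anti-ICOSL from day 3, from day 0 or for both schedules together against isotype, and limma called 0% of all 15372 probe sets in each of them. The smallest adjusted p among the 22 was 0.334 for day 3, 0.533 for day 0 and 0.336 for both. The values for day 3 and for both are those of Bik 1420363_at, whose direction the filter fixed. Outside the 2 such probe sets the smallest were 0.384 for day 3 and 0.348 for both, for Bcl2l11 1456005_a_at. At an unadjusted p under 0.05 were 3 of the 22 for day 3 (10.2% of all tested probe sets), 5 for day 0 (7.18%) and 5 for both (9.35%). In each of these counts 2 are the probe sets whose direction the filter fixed. These comparisons share the 2 isotype arrays, and the values below are therefore given side by side. Median changes of the 22 were −0.15 for day 3 and −0.06 for day 0, against 0.03 and 0.02 over all tested probe sets.

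**Figure D3:**
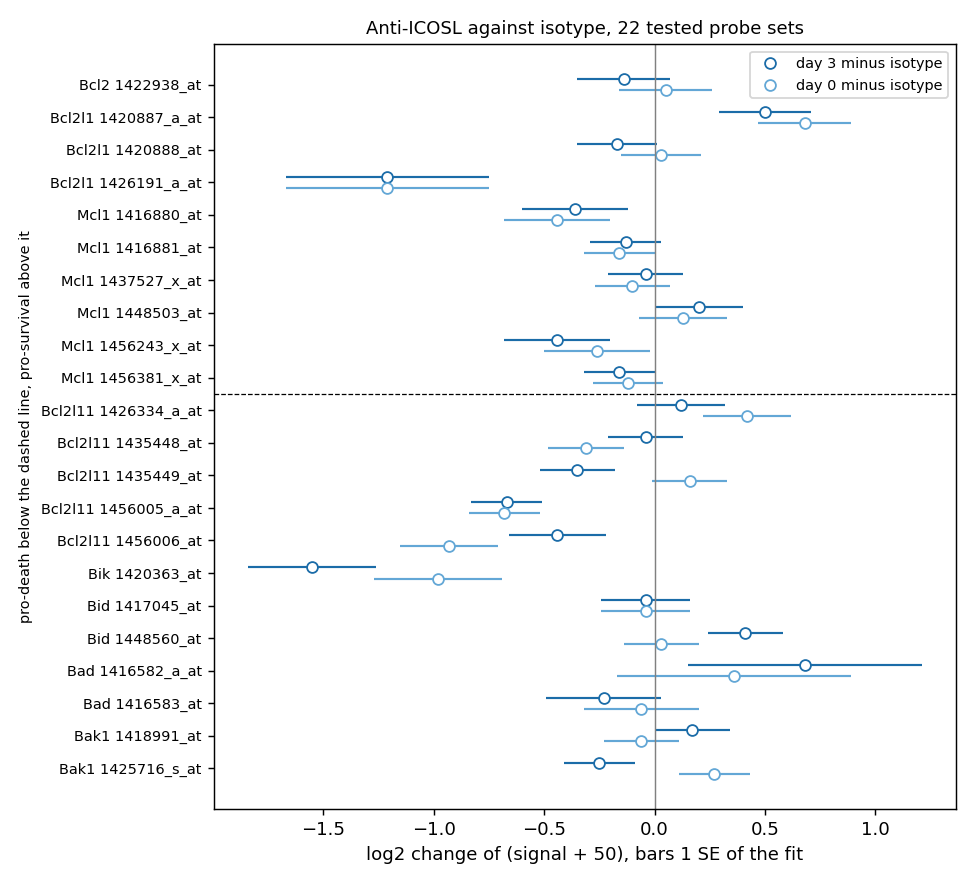
Log2 change of (signal + 50) against isotype for the 22 tested probe sets, for anti-ICOSL from day 3 (dark, 2 arrays) and from day 0 (light, 2 arrays), with bars of 1 SE of the fit. No point passed the test, and probe sets of Bcl2l11 lie on both sides of 0.

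Bcl2l11 gave different readings by probe set. The probe set 1456005_a_at read 584 and 562 on day 3 arrays, 529 and 615 on day 0 arrays, 956 and 928 on isotype arrays, and 1378 on the syngeneic array. All 4 arrays with antibody were below both isotype arrays. The change was −0.67 ± 0.16 for day 3 (unadjusted p = 0.00533, adjusted p = 0.384) and −0.68 ± 0.16 for day 0 (unadjusted p = 0.00516, adjusted p = 0.533). Another, 1456006_at, read 166 and 143 on day 3 arrays, 105 and 86.6 on day 0 arrays, 180 and 284 on isotype arrays, and 236 on the syngeneic array (−0.44 for day 3 and −0.93 for day 0).

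The other 3 Bcl2l11 probe sets did not share this pattern. The probe set 1435448_at read 938 and 1114 on day 3 arrays, 850 and 825 on day 0 arrays, and 983 and 1126 on isotype arrays. Its change was −0.04 for day 3 (95% interval −0.46 to 0.38) and −0.31 for day 0 (−0.73 to 0.10). For 1435449_at the signs differed, with −0.35 for day 3 and 0.16 for day 0, and 1426334_a_at was at 0.12 and 0.42. The direction for Bcl2l11 in antibody-treated spleens therefore differed between probe sets.

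**Figure D4:**
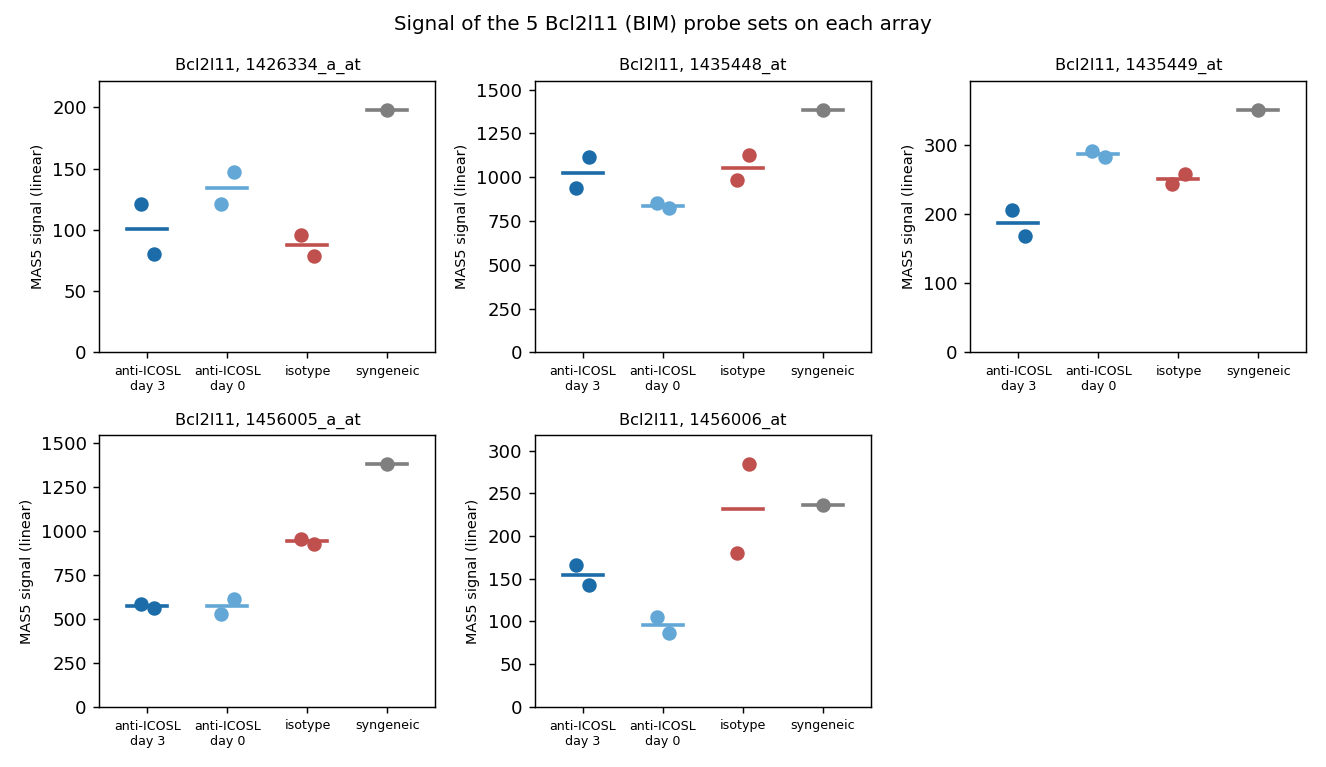
MAS5 signal of the 5 Bcl2l11 probe sets on a linear scale from 0, with a point for each array and a line at the group mean. For 1456005_a_at the antibody arrays (529 to 615) lie below the isotype arrays (928 and 956), whereas for 1435448_at day 3 arrays overlap isotype arrays.

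For Bcl2l1, 1420887_a_at read 334 and 386 on day 3 arrays, 432 and 397 on day 0 arrays, 291 and 197 on isotype arrays, and 223 on the syngeneic array, which is higher on every antibody array than on either isotype array (0.50 ± 0.21 and 0.68 ± 0.21, adjusted p = 0.496 and 0.604). The probe set 1426191_a_at read 15.9 and 66.1 on day 3 arrays, 84.3 and 7.23 on day 0 arrays, 192 and 119 on isotype arrays, and 96.8 on the syngeneic array (−1.21 in each comparison). Its isotype mean of 156 alone reached the filter, so this direction was fixed and does not show that the gene's probe sets disagree. The remaining tested one, 1420888_at, read 527 and 448, 610 and 522, and 507 and 600 on day 3, day 0 and isotype arrays, with overlap and changes of −0.17 and 0.03. The last Bcl2l1 probe set, 1426050_at, was not tested and ran from 3.76 to 75.4.

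For Bik, 1420363_at read 5.26 and 12.5 on day 3 arrays, 17.7 and 62.9 on day 0 arrays, and 95.4 and 154 on isotype arrays (−1.55 ± 0.29 with adjusted p = 0.334, and −0.98 ± 0.29 with adjusted p = 0.594). It passed the filter on low signals only through its isotype mean of 125, so it had to differ in this direction. The untested 1449836_x_at went the other way, with 83.0 and 70.5 on day 3 arrays, 93.4 and 85.6 on day 0 arrays, and 12.6 and 20.1 on isotype arrays, all below the filter. The third Bik probe set, 1420362_a_at, ran from 38.3 to 63.5 with overlap between groups.

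**Figure D5:**
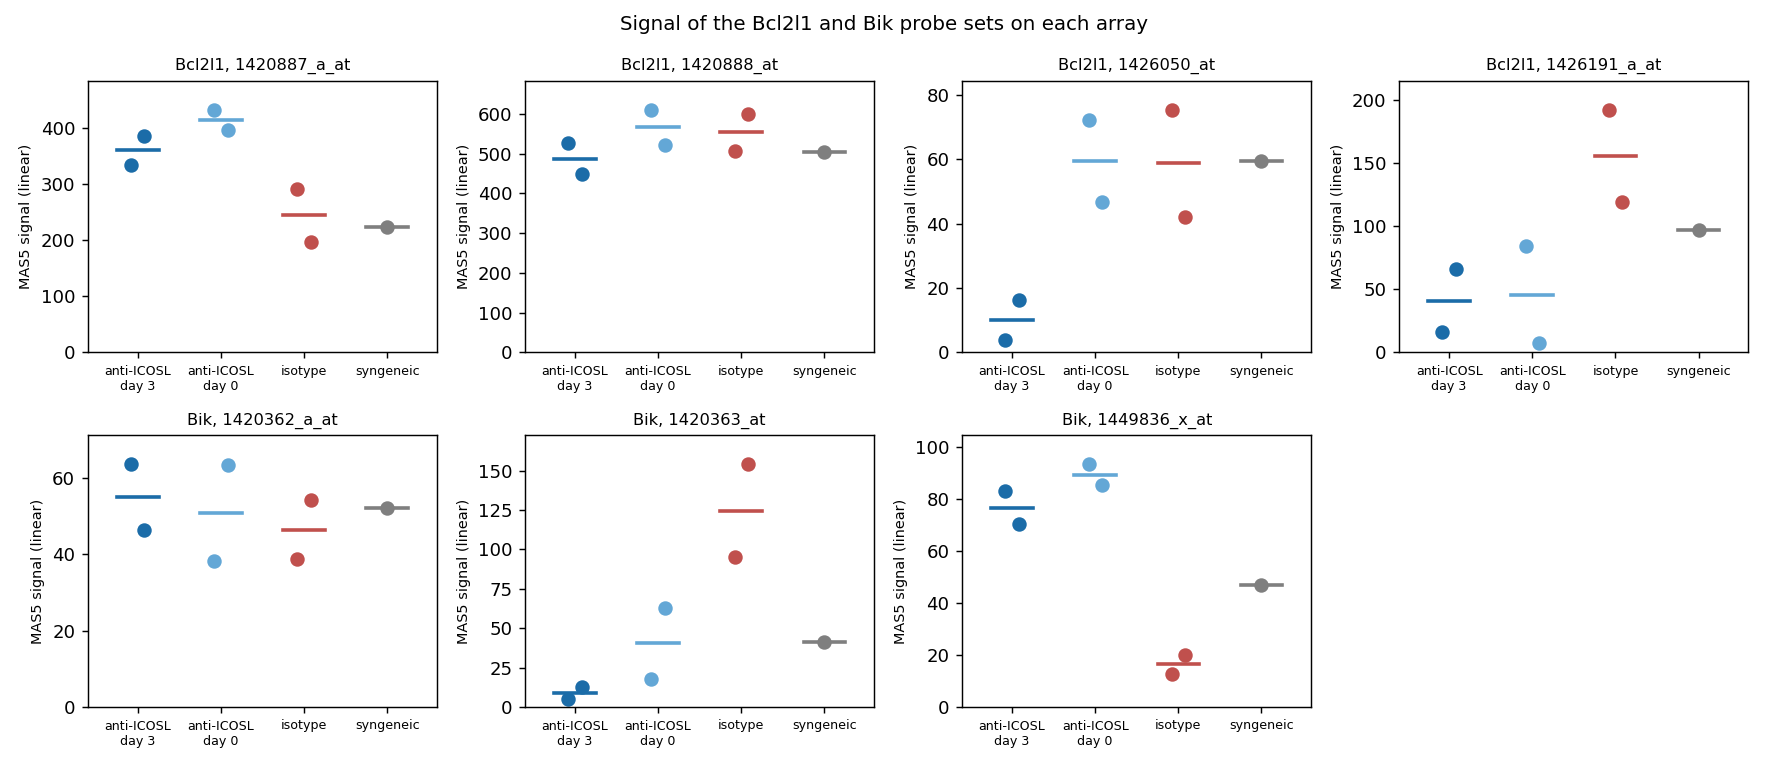
MAS5 signal of the 4 Bcl2l1 and 3 Bik probe sets on a linear scale from 0 that differs between panels, with a point for each array and a line at the group mean. Antibody arrays lie above isotype arrays for 1420887_a_at and 1449836_x_at and below them for 1426191_a_at and 1420363_at.

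Bcl2 and Bak1, the members that passed against syngeneic, passed under neither schedule. Bcl2 averaged 390 ± 54.9 on day 3 arrays, 458 ± 111 on day 0 arrays and 434 ± 29 on isotype arrays (SD, n = 2 each). Its change was −0.14 for day 3 (95% interval −0.65 to 0.37) and 0.05 for day 0 (−0.46 to 0.57). Bak1 changes were 0.17 and −0.06 for 1418991_at and −0.25 and 0.27 for 1425716_s_at in day 3 and day 0. Of the 6 Mcl1 probe sets 5 were below 0 in either comparison (down to −0.44). The antibody arrays were all below both isotype arrays for 2 of them, as on 7.94% of all tested probe sets. These 2, 1416881_at and 1456381_x_at, changed by −0.15 and −0.14 for both schedules together. Bid was at −0.04 in each comparison on 1417045_at, while 1448560_at read 425 and 350 on day 3 arrays, 301 and 267 on day 0 arrays, and 289 and 266 on isotype arrays (0.41 and 0.03). Bad had 0.68 and 0.36 on 1416582_a_at and −0.23 and −0.06 on 1416583_at, with overlapping arrays throughout.

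Arrays did not overlap for 12 of the 22 probe sets in day 3 against isotype, where this held for 43.1% of all tested probe sets, 3 higher (24.3%) and 9 lower (18.8%). For day 0 there were also 12 (35.5% of all), 4 higher (19.4%) and 8 lower (16.2%), and for both schedules together 7 (18.2%), 1 higher (10.2%) and 6 lower (7.94%). Each count of lower probe sets includes the 2 whose direction the filter fixed. Marker sums of other cells differed in the same comparisons. B cell markers summed to 11237 to 11866 on day 3 arrays, 11508 to 12322 on day 0 arrays and 15558 to 16964 on isotype arrays, and macrophage markers to 11811 to 13080, 14511 to 14764 and 8635 to 9179. Plasma cell sums were 34318 to 34392 on day 3 arrays, 20381 to 20804 on day 0 arrays and 17316 to 19569 on isotype arrays. Natural killer sums (1808 to 2280 and 1965 to 1988 against 1234 to 1591) and megakaryocyte sums (1354 to 1379 and 1159 to 1204 against 920 to 922) were also higher on day 3 and day 0 arrays than on isotype arrays. Erythroid sums were higher on day 3 arrays (10095 to 11198) and lower on day 0 arrays (6968 to 7355) than on isotype arrays (8295 to 8354). The neutrophil sum stood clear of isotype (10327 to 10834) on day 0 arrays (13658 to 14395), and those of T cells and proliferation overlapped for either schedule. The Gapdh ratio was 0.838 to 0.865 on day 3 arrays, 0.794 to 0.821 on day 0 arrays and 0.767 to 0.784 on isotype arrays. No marker of these lists passed in either comparison, and the part of these cells and of RNA quality in the members' values was not tested.

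None of the pathway genes from the lists passed against isotype. Taking the 2 genes with the largest absolute change from each of the 5 lists, those for day 3 were Tnf (−1.43), Tnfrsf1a (0.92), Hrk, a BH3-only gene (0.82), Casp4 (−0.78), Naip6 (0.68), Bcl2l13 (0.58), Il2ra (−0.47), the survival kinase gene Pim1 (0.41), Birc6 (0.33) and Diablo (−0.31). Tnfrsf1a read 1205 and 1228 on day 3 arrays, 887 and 1010 on day 0 arrays, 619 and 624 on isotype arrays, and 1817 on the syngeneic array. Every antibody array thus lay between isotype and syngeneic (adjusted p = 0.334 for day 3 and 0.578 for day 0). The gene was named for its change against these same isotype arrays, so this order is not independent of that choice. For day 0 they were Tnfrsf1a (0.57), Mapk8 (0.48), Stat5b (−0.43), Cradd (0.40), Htra2 (−0.37), Aifm1 (−0.33), Naip6 (0.32), Xiap (0.30), Pmaip1 (0.28) and Hrk (0.24). With both schedules together they were Tnf (−0.89), Tnfrsf1a (0.74), Hrk (0.53), Naip6 (0.50), Casp4 (−0.46), Mapk8 (0.41), Il2rb (0.34), Bcl2l13 (0.33), Birc6 (0.27) and Cycs (−0.23).

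The last comparison sets the late start of the antibody against the early one. Time of exposure and doses before harvest differ with the start day and cannot be told apart from it. No member passed (smallest adjusted p = 0.689), limma called 0% of all probe sets, and 2 of the 22 had an unadjusted p under 0.05 (6.79% of all tested probe sets). These were 1425716_s_at of Bak1, with 512 and 446 on day 3 arrays against 704 and 711 on day 0 arrays (−0.52 ± 0.16), and 1435449_at of Bcl2l11, with 206 and 168 against 291 and 283 (−0.51 ± 0.17). The second Bak1 probe set went the other way, with 1102 and 1074 on day 3 arrays against 919 and 932 on day 0 arrays (0.22 ± 0.17), and neither pair overlapped. Arrays of the schedules did not overlap for 9 of the 22 probe sets, 4 higher and 5 lower, where this held for 39% of all tested probe sets (20.4% higher and 18.6% lower). The 10 pro-survival probe sets lay between −0.20 and 0.08, and 1 of them did not overlap. Pro-death probe sets lay between −0.57 and 0.49, and 8 of the 12 did not overlap, 4 higher and 4 lower. Bcl2l11 had 2 higher and 2 lower, Bak1 1 of each, Bid 1 higher and Bik 1 lower. The −0.57 is that of Bik 1420363_at, whose means of 8.88 on day 3 and 40.3 on day 0 arrays both lie below the filter. All 10 tested erythroid markers were above 0 in this comparison (median 0.65), with sums of 10095 to 11198 on day 3 arrays against 6968 to 7355 on day 0 arrays, and none passed. Plasma cell sums (34318 to 34392 against 20381 to 20804), megakaryocyte sums (1354 to 1379 against 1159 to 1204) and the Gapdh ratio (0.838 to 0.865 against 0.794 to 0.821) were higher on day 3 arrays, and macrophage sums (11811 to 13080 against 14511 to 14764) and neutrophil sums (10781 to 11317 against 13658 to 14395) lower. Their part in the values of the pro-death genes was not tested. Among pathway genes, none of which passed, the 2 with the largest absolute change in each list were Tnf (−1.07), Tnfsf10, which encodes the death ligand TRAIL (−0.82), Il7r (−0.77), Casp4 (−0.65), Hrk (0.58), Bcl2l13 (0.50), Pim1 (0.42), Aifm1 (0.40), Naip6 (0.36) and Birc2 (0.28).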

How the data were processed

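The deposited values are intensities per probe set, made with MAS5 according to the submitters' processing notes, with no version given, and are on a linear scale. The 2% trimmed mean of each array was 500.18 to 500.19, so no further scaling was applied. Of 22690 probe sets, 64 controls were left out. By the platform annotation 20380 of the rest have 1 symbol, 691 several and 1555 none. Limma 3.58.1 (R 4.3.3) was fitted once to log2(signal + 50) of all 7 arrays with a mean per group (residual df 3, prior df 3.36), and the single syngeneic array is taken to vary as the others do. Probe sets with at least 1 group mean at or above the 40th percentile of all signals were tested (15372). P-values are two-sided, adjusted by Benjamini-Hochberg within each comparison, and called under 0.05. List genes were read by their probe set with the highest mean, and those without one of a single symbol were not used. Members, lists and tests were chosen with earlier results of these data known. From each list up to 4 genes that passed are named per comparison, or else the 2 with the largest absolute change, and for each member that passed the 2 genes most like it. Alternatives were other pseudocounts, filters, normalizations, array sets and limma options, the replicate number as a block, and each array left out. The fit was tested on simulated data. The number of arrays limits precision.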

Additional observations from a re-analysis of the deposited data

How the results depend on the processing

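For isotype against syngeneic, 1616 probe sets passed with a filter at the 60th percentile, 542 with no filter, 311 with the compared groups only and 1786 with trend and robust options, against 1017. With 1 array left out 406 to 713 passed, the fewest without isotype array 2, where each remaining lone array was assumed to vary like the others. Of the members, 2 probe sets passed in the reported fit, 1 with a pseudocount of 16 and with median centring, 0 with no filter and with the compared groups only, 4 with trend and robust options, and 0 to 0 with any 1 array left out. Bcl2 lost its call in 11 of 14 alternatives (changes −1.29 to −1.14, adjusted p up to 0.116) and the Bak1 probe set 1425716_s_at in 8 of 14 (0.98 to 1.21, up to 0.115). The Bak1 probe set 1418991_at passed in 4 of 14, and Mcl1 1437527_x_at in 1. Compared groups only and trend and robust options put 23.8% and 47% of the called probe sets on the higher side, against 37.7%. None of these members' directions turned. For day 0 against isotype 3 probe sets passed with a pseudocount of 100, 13 with the 60th percentile and 21 with trend and robust options. For day 3 against isotype these counts were 2, 8 and 5, for day 3 against day 0 they were 6, 7 and 12, for both schedules 1, 6 and 21, and every other setting gave 0, as did leaving out any 1 array. None of them was a member. The replicate block gave 0 calls in each comparison among allogeneic groups, as without it; the numbers share no deviation (r = −0.012 to 0.075). The cause of each change was not tested.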
